A study of Mus musculus with 2 samples.

Results

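Endothelial cells holding RNA of von Willebrand factor (Vwf), which in lung marks arteries and veins more than the finest capillaries, were taken from single-cell RNA libraries of mouse lung. A cell was a member when it had at most 10% of its UMIs (unique molecular identifiers, 1 per captured RNA molecule) on mitochondrial genes, at least 1 UMI of at least 3 of the 7 endothelial genes Pecam1, Cdh5, Cldn5, Egfl7, Ramp2, Calcrl and Tie1, no UMI of Ptprc, Prox1, Mmrn1 or Lamp3, and at least 1 UMI of Vwf. The rule found 132 members among 15453 cells: 61 of 8280 in the control library and 71 of 7173 in the fibrosis library. The same rule with Vwf at 0 found 198 and 97 cells, called Vwf-negative endothelial cells here, which were used for comparison. Members were thus chosen by their measured expression, so the levels of the 7 endothelial genes, the 4 excluded genes and Vwf describe that choice and are no finding.

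Endothelial cells line all blood vessels. Vwf is a large glycoprotein that they store in rod-shaped granules, the Weibel-Palade bodies, together with P-selectin (Selp) and other cargo, and release on stimulation to catch platelets and begin leukocyte rolling. In lung, Vwf is carried mainly by endothelium of arteries, veins and larger capillaries, whereas the thin gas-exchanging capillary cells, the aerocytes, which express Car4 and Ednrb, hold little. Arterial endothelium is known for Notch signalling and the gap junction protein connexin 40 (Gja5), and venous endothelium for the transcription factor Nr2f2 and, in lung, the noradrenaline transporter Slc6a2.

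The libraries came from whole lungs of 2 male C57Bl/6J mice aged 3 months, 1 in a control group and 1 in a fibrosis group, and were made with 10x Genomics 3′ chemistry, version 2. Lungs were perfused with HBSS, digested with dispase and DNase I and cleared of red cells, and the study's question concerned M-CSF signalling in macrophages of the fibrotic lung. The labels state that 100 µg of crocidolite asbestos or of titanium dioxide (TiO2) was given into the trachea 14 days before harvest. Both particles are named for both samples, without assigning one to each mouse, and only the group words are used here. With 1 library a group there is no replicate and no test: intervals cover counting error only, and the particle, the mouse and the library cannot be told apart. A call means a difference of 2-fold or more. In whole-lung suspensions, fewer cells of a type and fewer captured cells of that type cannot be told apart either.

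After the mitochondrial limit 8026 control and 6945 fibrosis cells remained. Members held a median of 2510 UMIs (range 1466 to 12679) and 1256 genes in control, and 3477 UMIs (2017 to 18168) and 1648 genes in fibrosis. The fibrosis library was deeper in every class looked at, with medians of 2516 against 2049.5 UMIs in Vwf-negative endothelial cells and 2924.5 against 2034.5 in B cells. Cells above 10000 UMIs numbered 2 and 8 among the members and held 12.4% and 33.9% of the members' UMIs. No member barcode occurred in both libraries, although 89 barcodes did over all cells. RNA of other cell types made up at least 2% of the UMIs in 8 control members and 1 fibrosis member, counted on the marker lists of neutrophils and monocytes, type I alveolar cells (AT1) and macrophages. Markers of airway club cells, a list that includes Retnla, were outside that count and summed to 1137 and 1085 UMIs in members. On them 1 control and 0 fibrosis members reached 2%. Type II alveolar markers, also outside it, summed to 645 and 817 UMIs.

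Vwf itself ranged from a single molecule to a leading transcript. It was at 1 UMI in 14 control and 7 fibrosis members, at 2 to 4 in 12 and 12, at 5 to 9 in 14 and 23, and at 10 or more in 21 and 29. The median was 5 UMIs in control and 8 in fibrosis, with highest cells of 70 and 80. Relative to depth the libraries were close: summed over members, Vwf took 554 of 192259 UMIs in control and 835 of 324651 in fibrosis, or 2882 and 2572 CPM (UMIs scaled to the summed UMIs of the cells compared, per 1e6), a log2 ratio of fibrosis to control of -0.16. As a description only, since Vwf chose the members, Vwf (chr6:125546774-125686679, plus strand, mm10) was compared between members with venous and arterial markers, described below. The log2 ratio of venous to arterial was 0.22 (-0.03 to 0.47) in control, an interval that spans no difference, and 0.75 (0.54 to 0.98) in fibrosis. The fibrosis value leans on few large cells. There, 4 venous-marked members above 10000 UMIs held 80, 79, 55 and 41 of 574 Vwf UMIs. The 4 such arterial-marked members held 22, 18, 10 and 5 of 244. The ratio without them was not taken.

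**Figure D1:**
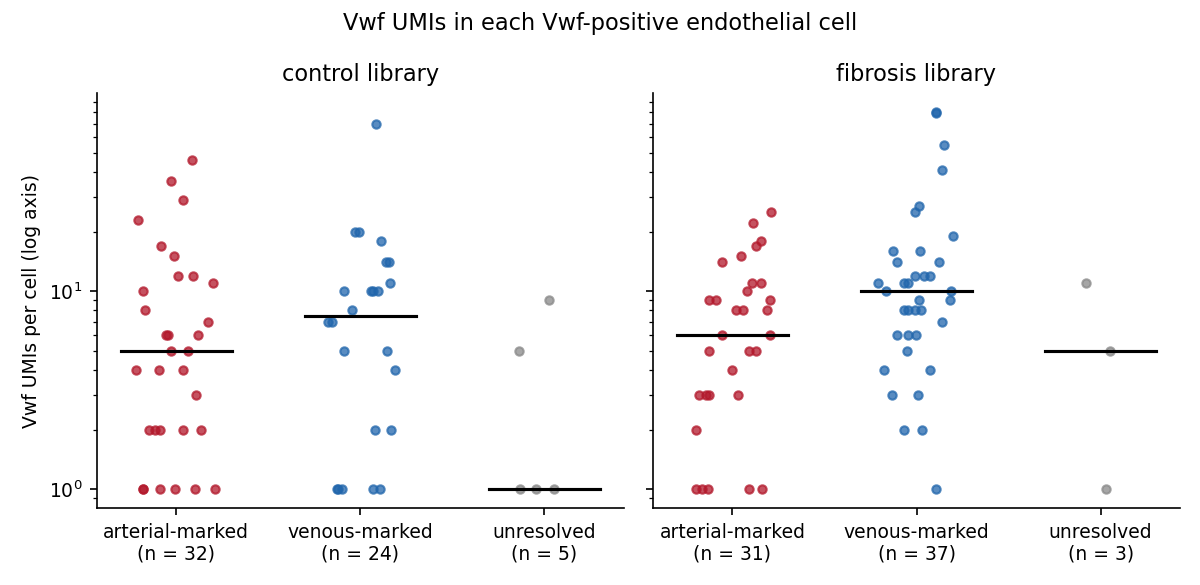
Vwf UMIs in each member cell (y axis, log scale) by library and vessel class on the x axis; points are cells and lines are medians. Venous-marked members have medians of 7.5 (control) and 10 (fibrosis) UMIs and arterial-marked members 5 and 6, with wide overlap. Venous-marked members are also deeper, with median total UMIs of 2645.5 against 2375 in control and 3583 against 2770 in fibrosis.

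Vwf-positive endothelial cells were a slightly larger share of the fibrosis library, and Vwf-negative ones a smaller share. Members were 0.760% of kept control cells (exact Clopper-Pearson 95% interval 0.582 to 0.975) and 1.02% of kept fibrosis cells (0.799 to 1.29), intervals that overlap. Vwf-negative endothelial cells were 2.47% (2.14 to 2.83) and 1.40% (1.13 to 1.70). Among endothelial cells Vwf-positive ones therefore made up 23.6% in control (18.5 to 29.2) and 42.3% in fibrosis (34.7 to 50.1). With every cell thinned to 1500 UMIs, these shares were 19.7% (55 of 279) and 37.7% (75 of 199). Thinning left out 156 control and 0 fibrosis cells that were shallower, and the rule was applied again to the thinned counts. A cell that lost its UMIs of an excluded gene could thus become a member. As a measure of free Vwf RNA, 13 of 1130 control B cells (1.15%) and 17 of 668 fibrosis B cells (2.54%), which should lack Vwf, held a UMI, at the median depths given above, and 0.627% and 1.44% after thinning.

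The gates removed some Vwf-carrying cells. Of 306 control and 408 fibrosis kept cells with a Vwf UMI, 102 and 115 had at least 3 of the 7 endothelial genes, and 41 and 44 of these were left out by the 4 excluded genes. Ptprc, the pan-leukocyte antigen, was found in 35 and 32 of them, the type II alveolar gene Lamp3 in 8 and 15, the platelet and lymphatic gene Mmrn1 in 1 and 1, and the lymphatic factor Prox1 in 0 and 0. Members stood clear of the limit of 3 endothelial genes: 20 control and 35 fibrosis members had all 7, 1 and 1 had exactly 3, and 0 and 1 cells that met the other criteria had 2. The mitochondrial limit left out 0 and 3.

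Of the genes that mark the members, Pecam1 and Cdh5 belong to the rule and Plvap does not. Pecam1, a junctional adhesion molecule, stood at 1025 CPM in control and 1100 in fibrosis, and Cdh5, VE-cadherin, at 759 and 952. Plvap, which forms the diaphragms of fenestrae and caveolae, was found in 45 of 61 control members at 1118 CPM and in 61 of 71 fibrosis members at 1038 CPM. Vwf is also a product of megakaryocytes and platelets, but their markers summed to 6 and 4 UMIs over all members, with 5 of 9 at 0 in control and 7 of 9 in fibrosis. Lyve1, the hyaluronan receptor best known from lymphatic vessels, was high, at 1966 CPM in 52 control members and 1682 CPM in 68 fibrosis members. Prox1 and Mmrn1 were at 0 by the rule, but the lymphatic genes Reln (0 UMIs in both) and Ccl21a (0 and 1) were not part of it. Flt4 and Pdpn, lymphatic markers also outside the rule, had UMIs in members of both libraries. The 7 lymphatic markers summed to 391 and 556 UMIs, of which Lyve1 gave 378 and 546. Fibroblast markers summed to 5 and 5 UMIs, with 4 of 8 at 0.

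Most members could be placed on an arterial to venous range. Cells were called arterial-marked when they held UMIs of at least 2 of 18 arterial markers and of more arterial than venous ones, and venous-marked in the reverse case, over 14 venous markers. These classes are ranges of a count and not cell types. In control 32 of 61 members were arterial-marked (52.5%, 39.3 to 65.4), 24 venous-marked (39.3%, 27.1 to 52.7) and 5 unresolved. In fibrosis 31 of 71 were arterial-marked (43.7%, 31.9 to 56.0), 37 venous-marked (52.1%, 39.9 to 64.1) and 3 unresolved. The intervals overlap between libraries for both classes. After thinning, arterial-marked members were 49.1% and 37.3%, and venous-marked 41.8% and 57.3%. Of Vwf-negative endothelial cells 63.6% in control (56.5 to 70.3) and 50.5% in fibrosis (40.2 to 60.8) were unresolved. Arterial-marked cells were 20.2% of them in control (14.8 to 26.5) and 37.1% in fibrosis (27.5 to 47.5). The fibrosis interval overlaps that of arterial-marked members. Of arterial-marked Vwf-negative cells, 20 of 40 in control and 19 of 36 in fibrosis lay within 1 marker of the cut. Of arterial-marked members, 2 of 32 and 1 of 31 did. Venous-marked cells were 16.2% and 12.4% of Vwf-negative cells.

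The 2 leading markers of these classes never met in 1 member. Gja5 was found in 16 control and 19 fibrosis members and Slc6a2 in 19 and 34, and no member of either library held both. Gja5 gave 62 UMIs in arterial-marked and 0 in venous-marked members of control, and again 62 and 0 in fibrosis. Slc6a2 gave 114 UMIs in venous-marked and 4 in arterial-marked members of control, and 320 and 0 in fibrosis. Both genes are class markers, so their split follows partly from how the classes were drawn, but their absence from the same cell does not use the class.

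**Figure D2:**
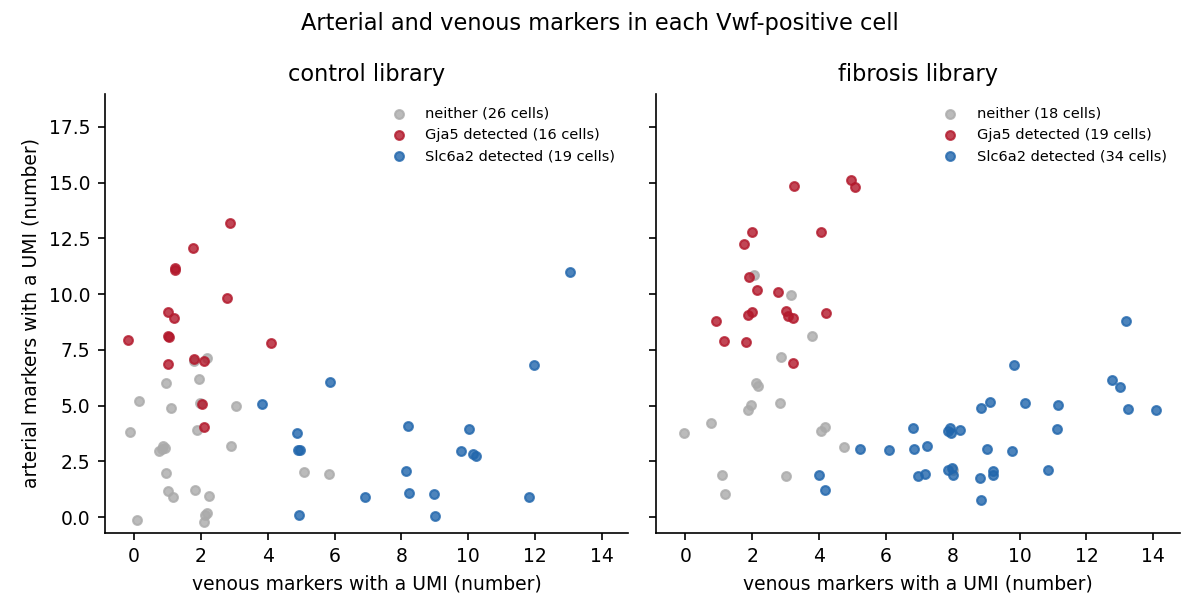
Number of venous markers (x axis) and of arterial markers (y axis) with a UMI in each member, 1 panel a library, points shifted slightly at random and coloured by whether Gja5, Slc6a2 or neither was detected. Cells with Gja5 (16 in control, 19 in fibrosis) and cells with Slc6a2 (19 and 34) lie mostly on opposite sides, and 26 and 18 members hold neither.

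Genes outside the marker lists followed the same split. The rule for naming them was chosen after their values were seen. Higher in venous-marked members of both libraries were Fabp4, a fatty acid carrier (58 against 0 UMIs in control, at least 25.5-fold from a floor of 3 counts a group, and 190 against 0 in fibrosis, at least 45.4-fold), and Ackr3, a scavenging receptor for CXCL12 (34 against 2, log2 4.19, and 71 against 3, log2 3.87). Lrg1, a secreted glycoprotein that acts on TGF-beta signalling, stood at 918 against 129 CPM in control and 1238 against 152 in fibrosis, and the sialomucin Emcn at 289 against 49.7 and 436 against 114. Higher in arterial-marked members were the retinol carrier Rbp7 (71 against 0 UMIs in control, at least 17.9-fold, and 70 against 0 in fibrosis, at least 32.5-fold), the proprotein convertase Pcsk5 (24 against 0 and 36 against 0) and the clot-dissolving protease Plat, tissue plasminogen activator (71 against 1 and 96 against 0). Vegfa was lower in venous-marked members by log2 -2.73 and -2.45. Of 1493 genes tested in both libraries, 34 (2.28%) were called higher in venous-marked and 61 (4.09%) higher in arterial-marked members in both.

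Not all listed markers split cleanly between the classes. The chemokine Cxcl12, on the arterial list, was lower in venous-marked members by log2 -4.04 and -3.99, but Vegfc, also on that list, was higher there (2.72 and 3.46). The venous markers Vcam1 (0.45 and 0.25) and Slco2a1 (0.54 and 0.49), and the arterial marker Fbln5 (0.32 and -0.33), were within 2-fold. Vwf was 3305 CPM in venous-marked and 2830 in arterial-marked members of control, and 3131 and 1855 in fibrosis.

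Vessel markers differed with the amount of Vwf in a member. The groups were drawn on raw Vwf UMIs and so differ in depth too, with control medians of 2059.5, 2375 and 2630 UMIs. Every member above 10000 UMIs fell in the group of 5 or more, and the part of depth was not tested. Slc6a2 had 0 UMIs in members with 1 Vwf UMI in both libraries, with intervals up to 90.8 and 152 CPM. It stood at 65.0 and 448 CPM at 2 to 4 Vwf UMIs, and 993 and 1161 CPM at 5 or more. The control 65.0 CPM came from 2 UMIs (7.88 to 235 CPM), an interval that overlaps that of the 0. Venous markers together were at 1034 and 1356 CPM at 1 Vwf UMI, 1463 and 3805 at 2 to 4, and 5187 and 5982 at 5 or more. Arterial markers were 1427 and 2095 CPM at 1 UMI, 4260 and 3805 at 2 to 4, and 4335 and 3637 at 5 or more. In control, monocyte and neutrophil markers took 23209 CPM at 1 Vwf UMI, 74211 at 2 to 4 and 2457 at 5 or more, against 2506, 11787 and 1922 in fibrosis. Of the 8 control members with at least 2% of RNA of other types, 5 had exactly 1 Vwf UMI. The part of that RNA in the low-Vwf values was not tested.

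Promoter sequences are shown for 4 genes that mark the ends of the ranges described here: Gja5 and Rbp7 for arterial-marked members, Cytl1, a secreted cytokine-like protein, for Vwf-positive cells, and Car4, a carbonic anhydrase of the capillary surface, for Vwf-negative cells. Each is the 250 bases before the RefSeq gene start on GRCm38.p6, 5′ to 3′ on the gene's strand, and capitals mark GGAA or its reverse complement TTCC, the core letters bound by ETS factors such as Fli1 and Erg.
Gja5 (chr3:97032152-97032401, plus): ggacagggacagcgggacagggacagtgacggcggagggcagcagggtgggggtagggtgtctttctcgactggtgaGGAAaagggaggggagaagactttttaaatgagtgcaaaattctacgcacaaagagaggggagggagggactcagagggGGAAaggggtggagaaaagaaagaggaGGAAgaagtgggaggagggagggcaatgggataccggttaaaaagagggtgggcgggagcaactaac
Rbp7 (chr4:149454969-149455218, minus): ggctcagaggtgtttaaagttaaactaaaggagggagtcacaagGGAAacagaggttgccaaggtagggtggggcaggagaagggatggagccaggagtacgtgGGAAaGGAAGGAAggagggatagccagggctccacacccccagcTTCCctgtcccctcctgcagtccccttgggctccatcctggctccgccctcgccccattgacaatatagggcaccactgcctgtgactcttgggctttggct
Cytl1 (chr5:37735269-37735518, plus): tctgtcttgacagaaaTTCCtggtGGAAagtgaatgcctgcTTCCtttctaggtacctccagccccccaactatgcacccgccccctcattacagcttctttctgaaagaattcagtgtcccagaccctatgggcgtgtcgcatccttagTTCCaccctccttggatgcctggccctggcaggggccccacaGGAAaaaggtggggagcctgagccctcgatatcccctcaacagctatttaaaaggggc
Car4 (chr11:84957504-84957753, plus): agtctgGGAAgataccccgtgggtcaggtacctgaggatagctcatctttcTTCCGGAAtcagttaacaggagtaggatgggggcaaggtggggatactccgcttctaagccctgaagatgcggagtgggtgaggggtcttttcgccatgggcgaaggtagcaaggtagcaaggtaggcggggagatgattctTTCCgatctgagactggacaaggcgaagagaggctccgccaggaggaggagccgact
The windows hold 3 matches in Gja5, 5 in Rbp7, 5 in Cytl1 and 4 in Car4, matches in a run counted separately. Of 32851 such windows in the RefSeq table, 93.4% hold at least 1 match, 54.7% at least 3 and 18.03% at least 5. The longer CCGGAA, searched on both strands and containing GGAA, occurs 2 times in the Car4 window, where both strands of a single TTCCGGAA are read, and in none of the others; 12.03% of windows hold it. A match describes letters and not a bound site. No window was printed for Vwf, Slc6a2, Fabp4, Lyve1 and Plat.

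Compared with Vwf-negative endothelial cells of the same library, members held more RNA of most venous and arterial markers and less of most aerocyte markers. Of 4443 genes tested in both libraries, 180 (4.05%) were called higher in members in both and 218 (4.91%) lower. Since Vwf chose the members, these ratios describe what goes with it. They are not independent tests, and values are given control first and fibrosis second. List medians in this comparison take for each gene the smaller of its 2 ratios, entered as 0 where the signs differ.

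The highest ratios belonged to genes nearly absent from Vwf-negative cells. Slc6a2 stood at 635 CPM in control members (19 cells) against 4.27, log2 6.90 with an exact counting interval of 5.33 to 10.28, and at 986 CPM in fibrosis members (34 cells) against 0, at least 108-fold. Cytl1 was at 525 (22 cells) against 6.40 CPM and 853 (37 cells) against 3.05. Rbp7, carried by 9 and 8 members, was at 369 and 216 CPM against 0 in both libraries, at least 57.7-fold and 23.6-fold higher. These genes were spread differently: Slc6a2 and Cytl1 over many members, Rbp7 over few.

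Further genes with high ratios included receptors, proteases and matrix proteins. The adhesion receptor Adgrg6 was at 364 and 394 CPM against 8.54 and 0, the matrix latency protein Ltbp4 at 525 and 542 CPM (log2 5.78 and 3.35), and the serine protease Prss23 at 707 and 1035 CPM against 36.3 and 82.4. Plat was at 375 and 296 CPM against 8.54 and 12.2, and Atp13a3, a polyamine transporter, at 713 and 407 CPM against 17.1 and 18.3. Lyve1 was higher by log2 3.21 (2.89 to 3.55) and 2.61 (2.29 to 2.95). Mmrn2, a matrix protein of endothelium (4.05 and 3.43), the dystrophin relative Utrn (3.26 and 3.04), the junction protein Jam2 (2.77 and 2.97) and Csrp2 (2.99 and 2.52) completed the set together with Gja5 (323 against 4.27 CPM in control; 191 against 0 in fibrosis) and Fabp4. Fabp4 came from 8 and 13 members, and 1 control cell held 69.0% of that library's UMIs of it.

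On the other side were genes of aerocytes. Car4 stood at 62.4 and 27.7 CPM in members against 2654 and 1293 in Vwf-negative cells, log2 -5.35 (-6.37 to -4.60) and -5.47 (-6.68 to -4.61). Apln, the ligand of the apelin receptor, was at 0 UMIs in members of both libraries against 297 and 180 CPM, at least 19.0-fold and 19.5-fold lower. The endothelin receptor Ednrb was at 72.8 and 24.6 CPM against 839 and 470, the membrane protein Emp2 at 203 and 70.9 against 2408 and 1461, and the transcription factor Tbx2 at 0 and 3.08 against 414 and 214. Chst1, a sulfotransferase, Fibin, Prx, AW112010 and the secreted Igfbp7 (224 and 182 against 3262 and 1708 CPM) were the other lowest genes. Of 15 aerocyte markers tested, 13 were called lower in both libraries and 0 higher. Their median log2, from the smaller ratio of each gene, was -3.55, beside 0.00 over all genes tested. That 0.00 is drawn to 0 by the genes entered as 0 because their signs differ. Summed, aerocyte markers stood at 2978, 1756 and 1439 CPM in control members with 1, 2 to 4 and 5 or more Vwf UMIs, and at 1397, 1343 and 1634 in fibrosis members, against 16159 and 9593 CPM in Vwf-negative cells. The exceptions among the 15 were the semaphorin and VEGF co-receptor Nrp1 and the leukocyte ligand Icam1.

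**Figure D3:**
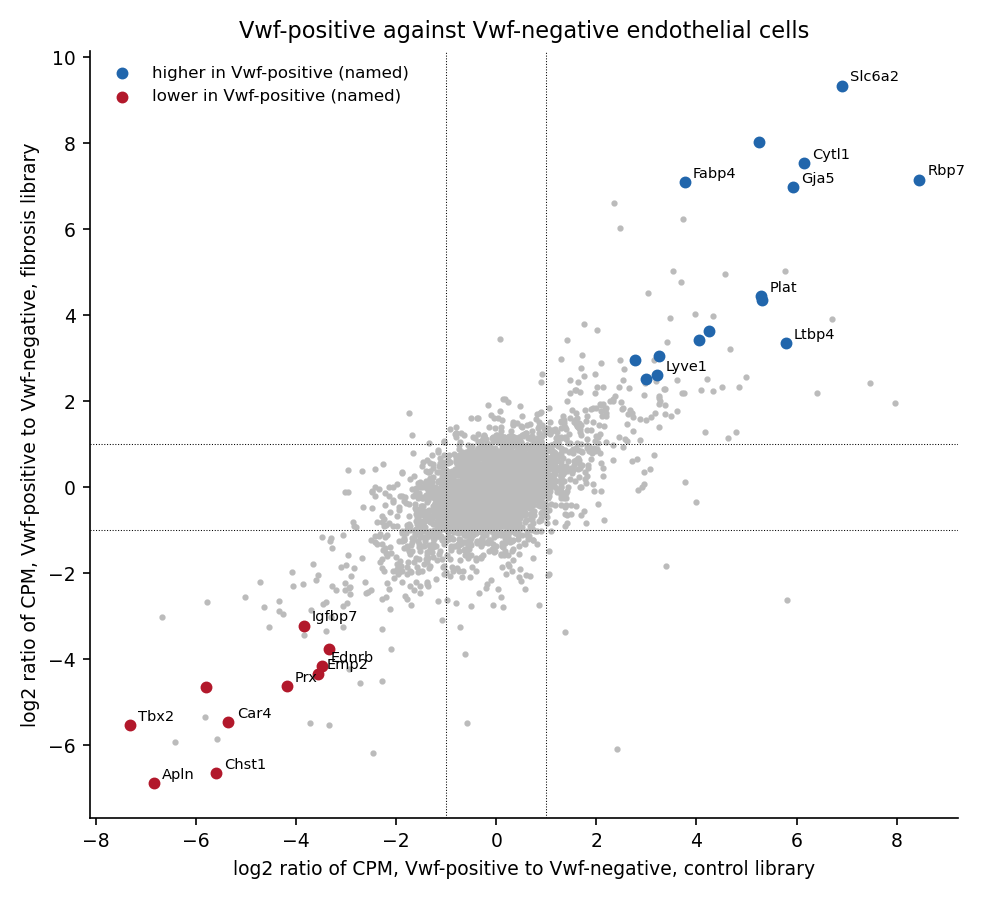
Log2 ratio of Vwf-positive to Vwf-negative endothelial cells in control (x axis) and in fibrosis (y axis), 1 point a gene with 0.5 UMI added to each sum, named genes coloured and dotted lines at 1 and -1. Slc6a2, Cytl1 and Rbp7 lie at the upper right and Car4, Apln and Tbx2 at the lower left in both libraries.

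Vessel-type lists split in the same way. Of 12 venous markers tested, 11 were called higher in members (median log2 2.46), all but the prostaglandin transporter Slco2a1, and of 14 arterial markers 11 (median 2.76). Of 12 general capillary markers 4 were higher: Plvap, Cemip2, Cd93 and Ptprb. Among 23 endothelial genes outside the rule, the angiopoietin receptor Tek, Mcam, Cd93, the phosphatase Ptprb and Plvap were higher and the VEGF receptor Kdr lower (208 and 243 against 1719 and 1275 CPM), with a median of 0.09. Of the genes of the rule, given as a description, Cdh5 stood at 759 and 952 CPM in members and 1744 and 1394 in Vwf-negative cells, and the tight junction protein Cldn5 at 2616 and 1725 and at 5630 and 3416 CPM; neither passed 2-fold in fibrosis.

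Genes of the secretory granules around Vwf went in both directions. Of 10 Weibel-Palade body genes tested, apart from Vwf, the stored vasoconstrictor Edn1 (671 and 456 against 216 and 82.4 CPM), Plat and the granule GTPase Rab27a were higher, and Igfbp7 and Gmfg were among the lower. Selp, whose protein is stored beside VWF, was at 26.0 and 95.5 CPM in members against 4.27 and 0 in Vwf-negative cells, with control too sparse for the test. On the coagulation list of 10, Plat and the ATP-degrading Entpd1 were higher, while thrombomodulin (Thbd) was 739 and 789 against 1189 and 1019 CPM, within 2-fold.

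Adhesion, chemokine and growth factor genes gave mixed counts. Of 10 adhesion genes, Vcam1 (307 and 444 against 59.8 and 3.05 CPM), Jam2, Mcam and Bst1 were called higher. Of 10 chemokine and cytokine genes, Cxcl12 (889 and 665 against 111 and 226 CPM), Ackr3 (187 and 237 against 6.40 and 24.4) and Il6st were higher, and the membrane chemokine Cx3cl1 and Ackr2 lower. Of 11 VEGF and angiopoietin genes, Nrp2, Tek, Vegfa (229 and 105 against 55.5 and 45.8 CPM), Vegfc and Ptprb were higher and Kdr and Apln lower. Of 9 Notch genes, Notch1, Dll1 and Nrarp were higher, and of 10 vasoactive genes Edn1, Ptgs1 and the phosphodiesterase Pde3a were higher and Ednrb lower.

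Of 17 matrix genes, Mgp, Eln, Fbln2, Fbln5, Bgn, Mmrn2 and Igfbp4 were higher in members and Igfbp7 lower. Elastin (Eln) stood at 234 and 459 CPM against 12.8 and 94.6, and the calcification inhibitor Mgp at 1332 and 2067 CPM against 47.0 and 851. In the fibrosis Vwf-negative cells 1 cell of 37762 UMIs was present, and fibroblast and mesothelial markers there summed to 451 and 340 UMIs; their part in these ratios was not tested. Of 19 transcription factors, Gata6, Foxo1 and Mecom were higher and Meox1 and Tbx3 lower, and of 23 interferon and antigen presentation genes Ifitm3 and Gbp4 were higher and Irf1, Ly6c1 and Cd74 lower. Of 17 TGF-beta and BMP genes Bmp4 and Ltbp4 were higher, of 16 caveola and junction genes Plvap and Jam2, of 10 lipid genes Fabp4, and of 10 glycolysis and hypoxia genes Vegfa and Ndrg1. Of 14 heat shock and early response genes Hspb1 was lower, and no cell cycle gene of 3 tested was called.

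Fibrosis members held more RNA of P-selectin (Selp), Thbs1, the collagen Col4a1 and the transcription factors Nr2f2 and Fli1 than control members, and less of Mgll, Hilpda and Vegfa. Of 4137 genes tested, 172 (4.16%) were called higher in fibrosis and 173 (4.18%) lower, 8.34% in all, with a median log2 of -0.02. In the vessel classes alone, 6.18% of 2089 genes were called higher and 5.17% lower in arterial-marked members, and 5.24% of 2194 higher and 5.15% lower in venous-marked ones. In Vwf-negative cells 5.84% of 5718 genes were called higher and 4.72% lower. These are differences between 2 mice, with no replicate to set them against.

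The genes with the highest ratios were high in other fibrosis cells too. All of the 12 highest were at least 2-fold higher in Vwf-negative cells, and 8 of them in the other kept cells of the lung. In Vwf-negative cells Nr2f2 had only 3 and 8 UMIs, under the limit of 20 for a test. Retnla and Cyp26b1 had 1 UMI each in control Vwf-negative cells. Retnla, the resistin-like protein Fizz1, went from 1 UMI to 67 (5.20 to 206 CPM, log2 4.74), with 6.52 in Vwf-negative and 5.61 in other kept cells. Cyp26b1, which degrades retinoic acid, was at 36.4 and 474 CPM (log2 3.61), with 4.86 and 4.76 in the same order. Others were AY036118, Gm10076, Gm10073, Rpl15, Gstp1, mt-Nd4l, Trim37, the protease inhibitor Spint2 (57.2 and 197 CPM, log2 1.73) and Nr2f2. Rpl15, Gm10076 and Gm10073 have near-identical copies in the genome, so how the counting divided their UMIs is uncertain.

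The lowest ratios belonged mostly to genes of other cell types. The neutrophil genes S100a8 (8447 and 973 CPM), S100a9 (6210 and 530), Retnlg, Wfdc17, Wfdc21, Ifitm1, Msrb1, Alox5ap and Hp, the AT1 gene Ager, the lipase Lpl and the monoglyceride lipase Mgll were the 12 lowest. All 8 monocyte and neutrophil markers had UMIs in both libraries and summed to 18319 CPM in control members and 3188 in fibrosis, with up to 35.6% and 9.12% of a single cell's UMIs. With the 9 members rich in RNA of other types left out, a step chosen after seeing the data, the sums were 2540 and 1934 CPM. Only 4 of the 12 genes then stayed at least 2-fold lower, among them Mgll at log2 -2.11, and Ager, of whose control UMIs 1 cell held 98.3%, turned to 2.17. S100a8 was then at -0.99 and S100a9 at -1.22.

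A naming rule chosen after the data were seen, which left out those 9 cells and kept genes that changed less than 2-fold in other kept cells, gave another set of names. Among the highest were Trim37 (2.06), Spint2 (1.97), Gatad2b (1.58), the basement membrane collagens Col4a1 (1.58, 127 and 387 CPM) and Col4a2 (60.6 and 178 CPM), and Sparc, Fli1 and Lrg1. Among the lowest were Mgll (-2.11), the calcium pump Atp2a3 (-1.55), the lipid-droplet protein Hilpda (-1.25), the small heat shock protein Hspb1 (-1.25) and the Notch feedback gene Nrarp (-1.13). Over all members Sparc was at 0.24, Lrg1 at 0.85, Col4a2 at 0.91 and Nrarp at -0.99, all under 2-fold. Without the richest cell of each library Lrg1 was at 0.51 and Hspb1 at -0.64. The rule did not use Vwf-negative cells, where Trim37, Spint2, Sparc, Mgll and Hspb1 also passed 2-fold in the same direction.

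Of 14 venous markers 3 were called higher (Nr2f2, Amigo2 and the chemokine-binding receptor Ackr1) and 0 lower, with a median of 0.55. Nr2f2 went from 62.4 to 176 CPM, log2 1.45 (0.58 to 2.53). Within venous-marked members the Nr2f2 ratio was 0.80 (-0.07 to 1.89), and in Vwf-negative cells 1.79 from only 3 and 8 UMIs. Venous-marked members were themselves a larger share of the fibrosis library. Ackr1 was found at 3 UMIs in 2 control members and 24 UMIs in 4 fibrosis members, log2 2.05 (0.52 to 4.62). The endomucin Emcn was at 146 and 308 CPM, log2 1.06 (0.46 to 1.74), with 0.57 in venous-marked and 1.11 in arterial-marked members. Of 16 arterial markers only the secreted protease Htra1 was called, higher at log2 1.61, with 6 and 33 UMIs. Of 8 aerocyte markers Car4, Ednrb and Emp2 were called lower, from sums that were low in both libraries; with cells thinned to 1500 UMIs Car4 turned to 3.01 and Ednrb to 0.93.

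Selp led the Weibel-Palade genes. It gave 5 UMIs in 4 control members and 31 UMIs in 13 fibrosis members (26.0 and 95.5 CPM, log2 1.76, 0.50 to 3.60). Within venous-marked members the ratio was 1.54 (0.02 to 4.11) and within arterial-marked members 1.20 (-0.97 to 4.72). It was the 1 gene called of 14 on that list, whose median was -0.03. Edn1 was not called (671 and 456 CPM, log2 -0.56, -0.91 to -0.21), and its ratio was -1.42 (-2.12 to -0.73) in venous-marked members and 0.01 (-0.41 to 0.44) in arterial-marked ones. These intervals do not overlap, and the difference between classes was not tested. Of 11 coagulation genes only Procr, the endothelial protein C receptor, was called, higher at 3 and 19 UMIs (log2 1.72, 0.14 to 4.31). With cells thinned to 1500 UMIs the Procr ratio was -0.085.

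Of 19 matrix genes tested, Col4a1, Sparcl1 and Thbs1 were called higher and 0 lower, with a median of 0.39. Over the alternatives run this median ranged from -0.56 to 0.71, so its sign was not stable. In Vwf-negative cells, which held the fibroblast and mesothelial RNA given above, 5 of 14 matrix genes were higher and 0 lower, median 0.55. Thbs1, thrombospondin 1, which activates latent TGF-beta, had 0 UMIs in control members and 37 in 9 fibrosis members, at least 7.30-fold higher, of which 26 were in venous-marked and 11 in arterial-marked members. Col4a1 stood at 146 and 388 CPM, log2 1.39 (0.81 to 2.06), with 1.34 in venous-marked and 1.68 in arterial-marked members, 0.53 in Vwf-negative cells and 0.87 in other kept cells. Its partner Col4a2 was at 93.6 and 179 CPM (0.91, 0.15 to 1.78). Eln was at 234 and 459 CPM, just under 2-fold, with 2.40 in arterial-marked and -0.09 in venous-marked members. For Mgp the values were 1.45 and -0.85. Of 6 mesenchymal genes the contractile genes Acta2 (6 UMIs in 3 members and 36 in 7) and Tagln (7 and 27 UMIs) were higher. Of 10 smooth muscle and pericyte markers 4 had any UMI: Acta2, Tagln, Myh11 and Rgs5. The others, Cnn1, Pdgfrb, Cspg4, Notch3, Kcnj8 and Higd1b, were at 0 in both libraries. The 10 summed to 19 UMIs in control members and 71 in fibrosis members (98.8 and 219 CPM). The part of RNA from such cells in the Acta2 and Tagln ratios was not tested.

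Of 11 chemokine and cytokine genes the interleukin-1 receptor Il1r1 (5 and 27 UMIs, log2 1.57, 0.28 to 3.41), the leukaemia inhibitory factor receptor Lifr (130 and 277 CPM) and Ackr1 were called higher and the chemokine Cxcl16 lower. The signalling inhibitor Socs3 was higher at 8 and 34 UMIs (1.27, 0.19 to 2.65). The ETS factor Fli1 went from 78.0 to 203 CPM, log2 1.35 (0.56 to 2.30), with 1.69 in venous-marked and 1.11 in arterial-marked members, against 0.04 in Vwf-negative cells and -0.00 in other kept cells. Vcam1 was at 307 and 444 CPM, within 2-fold (0.52, 0.08 to 0.99). E-selectin (Sele) had 0 and 3 UMIs, too few to compare.

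Vegfa, Hilpda and Mgll were lower in fibrosis members. Vegfa was at 229 and 105 CPM, log2 -1.12 (-1.82 to -0.45), and Hilpda at 806 and 379 CPM, -1.09 (-1.44 to -0.74). The Hilpda ratio was -1.27 (-2.55 to 0.02) in venous-marked and -0.78 (-1.16 to -0.41) in arterial-marked members. Mgll was at 67 UMIs in 23 control members and 29 UMIs in 20 fibrosis members (348 and 89.3 CPM, -1.95), and was also lower in Vwf-negative cells, at -1.06. Its ratio was -2.19 (-3.06 to -1.44) in arterial-marked and 0.32 (-1.49 to 2.97) in venous-marked members. Vegfa was the 1 gene called of 11 glycolysis and hypoxia genes, lower, and the list's median was -0.37. Of 11 lipid genes Fabp4 was higher and Lpl lower (229 and 52.4 CPM), with 47.7% of control Lpl in 1 cell. Without the 9 cells rich in RNA of other types, a step chosen after seeing the data, Vegfa was at -0.68, no longer 2-fold.

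**Figure D4:**
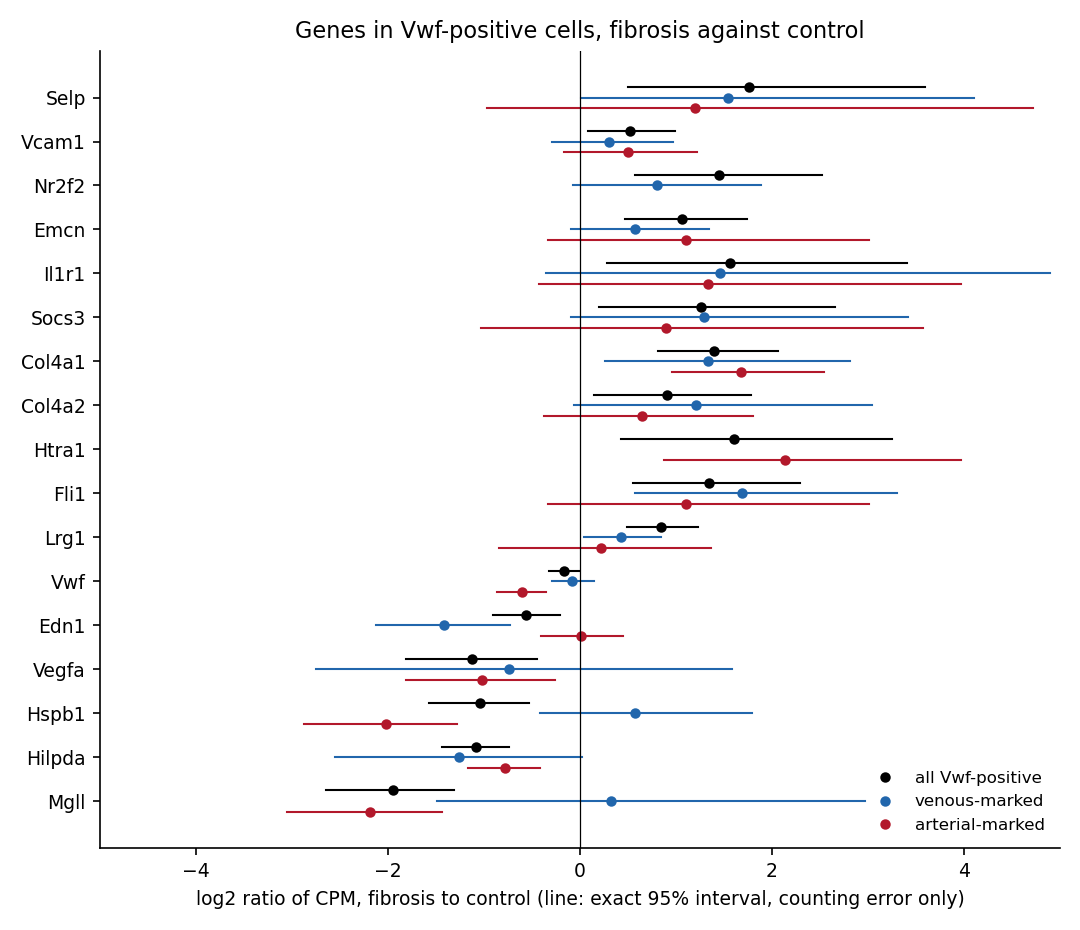
Log2 ratio of fibrosis to control (x axis) for 17 genes (y axis) in all members and in venous-marked and arterial-marked members; points are ratios of summed CPM, bars exact 95% counting intervals, and class points whose interval passes the axis are not drawn. Thbs1 and other genes at 0 in 1 library are not plotted; Selp (1.76), Col4a1 (1.39) and Fli1 (1.35) lie to the right and Mgll (-1.95), Vegfa (-1.12) and Hilpda (-1.09) to the left.

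The remaining groups held few calls. Of 23 endothelial genes outside the rule Emcn and Fli1 were higher (median 0.02), of 19 transcription factors Fli1 and Nr2f2, and of 11 adhesion genes Selp. Of 12 general capillary markers Hilpda and Lpl were lower. Of 10 VEGF and angiopoietin genes Esm1 was higher and Vegfa and Rgcc lower; Esm1 and Rgcc turned sign when cells were thinned, at -1.18 and 3.01. Of 14 heat shock and early response genes Socs3 was higher and Hspb1 lower, and the Hspb1 ratio was -2.02 in arterial-marked and 0.57 in venous-marked members. None of 10 Notch genes, 17 TGF-beta and BMP genes (median -0.06), 19 caveola and junction genes or 2 cell cycle genes was called, and of 13 vasoactive genes only Ednrb, lower. Mki67, a proliferation marker, had 0 and 4 UMIs. Below 2-fold, the BMP target Tmem100 was at 1446 and 795 CPM (-0.86), equal to its ratio in other kept cells (-0.86), the angiotensin-converting enzyme Ace at 1113 and 699 CPM (-0.67), and Gja5 at -0.76. The alarmin Il33 had 3 and 16 UMIs. Selp, Ackr1, Procr, Il1r1 and Thbs1 rest on few UMIs in control, and their intervals are wide accordingly.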

How the data were processed

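UMI counts of 2 libraries were used, 1 a group. The authors deposited raw UMI counts per gene and cell (27998 genes a file), made with bcl2fastq, Cell Ranger 1.3 and mm10 per the submitters' processing notes; the annotation is not given in the sources used here. How the authors called cells decides which shallow cells are present. Counts of member cells were summed in each library and divided by the summed UMIs (CPM). Log2 ratios have 0.5 UMI added to each sum and an exact conditional 95% interval; shares have exact Clopper-Pearson intervals. Reads sharing an identifier count once, so intervals cover counting error of molecules only. Genes with at least 20 UMIs over the compared sums were tested against 2-fold; a count of 0 was given a floor of 3 counts. No doublet filter was applied in the values reported; scanpy 1.11.5 (Scrublet) calls were left out as an alternative. The 12 highest and 12 lowest genes (fibrosis against control) and the 15 highest and 10 lowest (Vwf-positive against Vwf-negative), each with at least 50 UMIs, were named, beside members of 23 gene lists (376 genes, 375 present). Results of some genes are not reported here. Members, lists and rules were chosen with earlier results of these data known. Gene positions are from GENCODE M21 (27722 identifiers matched); promoter windows and their positions are from RefSeq on GRCm38.p6. Python 3.11.15, numpy 2.4.6, scipy 1.17.1, pandas 2.3.3 and matplotlib 3.10.9 were used, and the scripts were tested on simulated counts. In all, 13 alternatives were planned and others were added after seeing the data.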

Additional observations from a re-analysis of the deposited data

How the results depend on the processing

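No paired analysis was possible because each group has 1 library, so the groups share fewer than 2 replicate numbers; for the same reason no replicate could be left out. The 4 shares of cells stayed within their counting intervals under every alternative run; with cells rich in RNA of other types left out, chosen after seeing the data, they were 0.662% and 1.01% of kept cells and 22.3% and 43.5% of endothelial cells. Counts of called genes moved with depth and with the limit on low counts. Against 172 higher and 173 lower genes between fibrosis and control, and 180 higher and 218 lower between Vwf-positive and Vwf-negative cells, thinning to 1500 UMIs gave 90 and 88 of 1689 genes, and 86 higher of 2532 genes. A limit of 50 UMIs gave 41 and 43 of 1770, and 75 and 105 of 1995; a limit of 5 UMIs gave 839 and 980 of 8715, and 393 and 446 of 8665. Subtracting the ratio seen in Vwf-negative cells gave 350 and 395. Fibrosis to control log2 ratios of single genes that turned sign were, with Vwf of at least 2 UMIs, Sparcl1 -0.14, Rgcc 1.95, Car4 0.11, Esm1 -0.25 and Ager 2.57; thinned, Procr -0.085, Kcnq1ot1 0.10, Rgcc 3.01, Ednrb 0.93, Cxcl16 1.48, Car4 3.01, Esm1 -1.18 and Ager 3.18; without cells rich in RNA of other types, Rgcc 2.59 and Ager 2.17; without the richest cell, Rgcc 2.27, Esm1 -0.76 and Ager 0.92. With the Vwf-negative ratio subtracted they were Procr -1.11, Sparcl1 -0.40, Cyp26b1 -1.25, Nr2f2 -0.35, Htra1 -3.55, Gm10073 -0.24, Trim37 -0.063, Esm1 -0.98, Retnla -1.79, AY036118 -1.42, Gstp1 -0.80 and mt-Nd4l -0.13. The alternatives without large cells and without the richest cell were also chosen after seeing the data. The cause was not tested, and settings also changed which genes or cells were compared. Thinned counts went through the rule again, which gave 55 control and 75 fibrosis members instead of 61 and 71. In all, 3580 values of the single genes reported between the libraries stayed, 240 moved and 30 turned sign; between Vwf-positive and Vwf-negative cells 559 stayed and 41 moved.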
